A study of Mus musculus with 19 samples.

Results

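Bidirectional promoters are the short stretches of DNA from which 2 genes are transcribed in opposite directions, away from each other. They were taken here as pairs of annotated start sites of 2 different protein-coding genes on opposite strands, pointing apart and at most 1 kb from each other in the GRCm38 (mm10) genome. The curated RefSeq annotation held 932 such pairs, built from 1849 genes, which is 8.80% of the 21000 protein-coding genes examined. Of these genes, 1834 belonged to 1 pair and 15 belonged to 2, and the 932 pairs lay over 924 distinct intervals. The comparison was with 16349 one-directional promoters, protein-coding genes with no start site of any annotated gene on the other strand within 2 kb.

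The series held 19 samples of mouse testis and spermatogonia, of which the 2 SOX3 ChIP-seq replicates from testis at postnatal day 7 (P7) carry these results. ChIP-seq pulls down crosslinked chromatin with an antibody and sequences the DNA that comes with it. Both SOX3 replicates were labelled with the same antibodies from SCBT and EMD Milipore, and, by the study's methods, such libraries came from seminiferous tubules of a few pooled young mice. Genotype and strain were not given for these samples in the labels, and the study describes its SOX3 ChIP-seq replicates as biological ones. At P7 the tubules hold spermatogonia and Sertoli cells, and a weaker peak in such mixed tissue cannot be told apart from binding in fewer cells.

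In a bidirectional promoter a single nucleosome-depleted stretch serves both genes, usually within a CpG island, a region where CG dinucleotides have been kept in place of being lost through methylation. Such promoters are best known from housekeeping genes for DNA repair, mitochondrial function, RNA processing and chaperones, and from the replication-dependent histone genes, whose H2A and H2B members often sit back to back. SOX3 is an X-linked transcription factor of the SOX family with a DNA-binding HMG box, and in the testis it is found in undifferentiated spermatogonia.

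The DNA between the start sites differed widely among the pairs, and 8 intervals show the range. Each is the plus strand of GRCm38 read 5′ to 3′ from the start site of the minus-strand gene to that of the plus-strand gene, with every CG dinucleotide in capitals. The first pair has the strongest peak of all pairs, the second the next best mean rank over both replicates, and the 3 after them are well-known divergent pairs with a peak in both replicates. H2bc23/H2ac23 and Tcte3/Ermard are CG-rich pairs without a peak, and Abcg5/Abcg8 is a CG-poor pair without one.
Brd2/H2-DMa: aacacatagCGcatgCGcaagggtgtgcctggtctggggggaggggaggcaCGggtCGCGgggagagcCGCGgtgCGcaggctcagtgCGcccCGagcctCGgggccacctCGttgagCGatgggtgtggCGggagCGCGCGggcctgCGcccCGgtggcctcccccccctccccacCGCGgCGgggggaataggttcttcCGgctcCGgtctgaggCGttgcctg
Ddx5/Cep95: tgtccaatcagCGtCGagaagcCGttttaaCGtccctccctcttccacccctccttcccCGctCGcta
Hspd1/Hspe1: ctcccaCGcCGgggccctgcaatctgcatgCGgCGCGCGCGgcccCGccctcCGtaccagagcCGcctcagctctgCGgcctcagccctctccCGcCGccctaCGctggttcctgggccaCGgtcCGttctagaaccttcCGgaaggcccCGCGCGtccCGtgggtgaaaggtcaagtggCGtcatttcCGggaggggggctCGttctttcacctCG
Mcm7/Ap4m1: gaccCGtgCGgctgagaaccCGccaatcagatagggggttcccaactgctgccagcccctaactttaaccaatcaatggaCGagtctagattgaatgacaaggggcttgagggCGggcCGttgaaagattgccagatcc
Tsc2/Nthl1: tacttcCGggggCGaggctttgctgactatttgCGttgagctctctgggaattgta
H2bc23/H2ac23: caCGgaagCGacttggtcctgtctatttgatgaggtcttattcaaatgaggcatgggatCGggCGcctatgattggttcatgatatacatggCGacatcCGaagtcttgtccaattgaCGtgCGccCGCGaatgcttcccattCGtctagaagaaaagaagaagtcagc
Tcte3/Ermard: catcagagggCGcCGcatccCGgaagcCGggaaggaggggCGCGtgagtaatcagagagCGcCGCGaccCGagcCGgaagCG
Abcg5/Abcg8: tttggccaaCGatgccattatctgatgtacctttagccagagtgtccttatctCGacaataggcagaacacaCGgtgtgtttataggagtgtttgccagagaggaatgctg
Brd2/H2-DMa at chr17:34122607-34122832 held 25 CG dinucleotides in 226 bases, and Hspd1/Hspe1 at chr1:55087932-55088148 held 25 in 217. Ddx5/Cep95 at chr11:106789185-106789252 was much shorter, with 6 in 68 bases, and Mcm7/Ap4m1 at chr5:138171883-138172021 and Tsc2/Nthl1 at chr17:24632627-24632682 held 6 in 139 and 3 in 56. The uncovered H2bc23/H2ac23 at chr13:21810199-21810367 held 11 in 169 bases and Tcte3/Ermard at chr17:15041559-15041640 held 12 in 82. H2bc23/H2ac23 was thus denser in CG than Mcm7/Ap4m1 and Tsc2/Nthl1 but less dense than the other 3 covered intervals. Tcte3/Ermard was denser than every covered interval shown. Abcg5/Abcg8 at chr17:84683011-84683121 held only 3 in 111. Over all pairs the median was 8.33 CG dinucleotides per 100 bases, against 8.77 in the 847 pairs covered in both replicates and 3.12 in the 38 covered in neither.

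Paired start sites lay 1 to 1000 bp apart, with a median of 148.5 bp and quartiles of 74 and 296 bp. The CpG ratio, the number of CG dinucleotides over the number that the C and G content would give by chance, was taken in a 1000 bp window around the middle of each interval. Its median was 0.775 for the pairs and 0.498 for the one-directional promoters, and 87.4% of pairs against 41.9% of one-directional promoters exceeded 0.6. The median GC content was 60.5% against 53.9%. Pairs therefore differ from other promoters in base composition before any peak is considered. Where stated, the comparisons below set one-directional promoters to an equal CpG ratio.

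The replicates listed 58351 and 38832 peaks, each called separately by the authors. No read numbers came with the peaks, so the reads behind a single value are unknown. By the study's account of its libraries, the one with the shorter peak list was the more deeply sequenced. By the inferred layout of the lists, each peak has a q score, −10 times the log10 of its adjusted p-value, and a log2 ratio of ChIP over input. A pair was called covered when a single peak spanned the whole interval between both start sites, and intervals given in brackets are exact binomial (Clopper-Pearson) 95% intervals over regions, which cover counting error only.

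Nearly all bidirectional promoters carried a SOX3 peak that spanned both start sites. In replicate 1, 889 of 932 pairs were covered, 95.4% (93.8% to 96.6%). In replicate 2, 852 were covered, 91.4% (89.4% to 93.1%), which gave 93.4% ± 2.81 (SD, n = 2). The background among one-directional promoters, for the same call on an upstream interval of 148 bp, was 51.9% in replicate 1 and 42.5% in replicate 2. Both replicates covered 847 pairs, 90.9%, against a background of 41% of one-directional promoters. A further 42 pairs were covered in replicate 1 alone and 5 in replicate 2 alone, while 38 were covered in neither and 27 of these were touched by no peak at all.

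The difference was smaller, and kept its direction, at equal base composition. When each one-directional promoter was given the length of each pair's interval and shares were averaged within 20 classes of CpG ratio, 81.7% were covered in replicate 1 and 69.6% in replicate 2. Pairs were higher by 13.7 percentage points in replicate 1 and by 21.9 in replicate 2, a mean of 17.8 ± 5.79 (SD, n = 2). The difference had the same direction in both replicates and was larger than the SD between them. After this weighting the mean CpG ratio was 0.757 for the pairs and 0.752 for the one-directional promoters. With 2 replicates no p-value was computed, and regions of 1 library were not treated as replicates.

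The excess was not even along the CpG scale. The pairs were divided into 10 classes of equal size by CpG ratio. One-directional promoters in the same range of ratio were given the length of each pair's interval in turn. In the lowest class, 64 of 94 pairs (68.1%) in replicate 1 and 53 (56.4%) in replicate 2 were covered, against 17.3% and 9.83% of one-directional promoters, although this class spans ratios from 0.0750 to 0.568 and the one-directional promoters crowd its low end. In the fifth class the pairs reached 100% and 96.8%, against 90.0% and 76.0%. In the highest class the values were 97.9% in both replicates, against 95.1% and 90.0%, so pairs and other promoters of very high CpG ratio differed by only 2.73 and 7.83 percentage points.

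**Figure D1:**
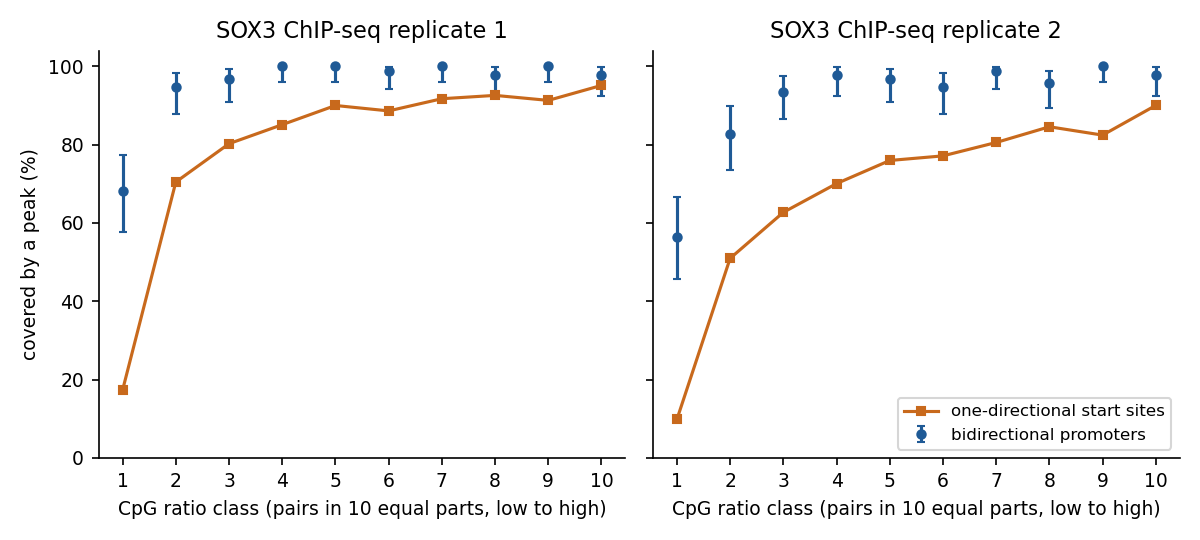
Share of bidirectional promoters (circles, with exact binomial 95% intervals) and of one-directional start sites (squares) covered by a SOX3 peak, in percent, by class of CpG ratio from low to high (10 classes with equal numbers of pairs), with 1 panel for each replicate. The circles lie above the squares in all 10 classes, from 68.1% against 17.3% in the lowest to 97.9% against 95.1% in the highest class of replicate 1.

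CG-poor pairs were the ones most often without a peak. Of the 39 pairs with a CpG ratio under 0.4, 15 (38.5%) were covered in replicate 1 and 10 (25.6%) in replicate 2. One-directional promoters under 0.4, with an interval of 148 bp, were covered in 10.1% and 5.24% of cases. These classes are not of equal CpG ratio, with medians of 0.270 in the pairs and 0.179 in the one-directional promoters. Of the 815 pairs above 0.6, 98.7% and 95.8% were covered, against 92.0% and 81.6% of one-directional promoters above 0.6. The 38 pairs covered in neither replicate had a median CpG ratio of 0.378, against 0.785 in the 847 covered in both. Among these 38, 21 had a CpG ratio under 0.4 and 15 had start sites more than 500 bp apart, and 8 had neither property.

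Coverage stayed above 90% in every class of distance between the start sites up to 500 bp. It was 99.2% in both replicates for the 126 pairs at most 50 bp apart. For the 111 pairs at 301 to 500 bp it was 99.1% and 94.6%. It fell to 84.2% and 77.2% for the 114 pairs at 501 to 1000 bp, where a peak had to be wide to span both sites. One-directional promoters given the same lengths and CpG ratios fell much further, from 91.0% and 81.4% in the shortest class to 40.8% and 24.7% in the longest. The differences were thus 8.23 and 17.8 percentage points at most 50 bp apart and 43.4 and 52.5 at 501 to 1000 bp. For a one-directional promoter the interval runs upstream from its only start site, so in the long classes the far end of its interval has no start site, whereas both ends of a pair's interval do.

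**Figure D2:**
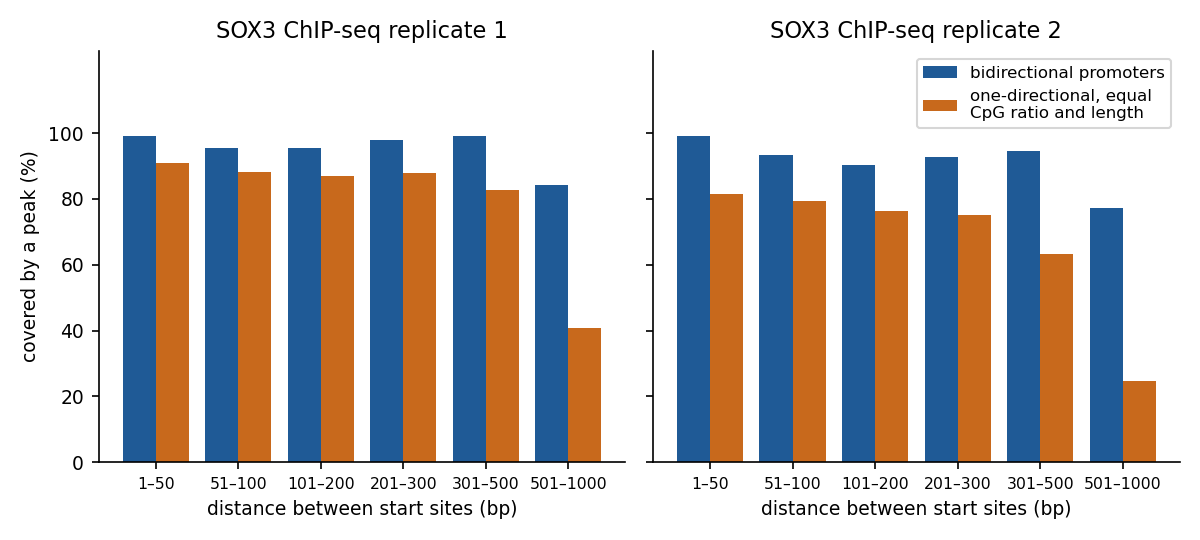
Share covered by a SOX3 peak, in percent, by the distance between the paired start sites in bp, for bidirectional promoters (dark bars) and one-directional promoters of equal CpG ratio and interval length (light bars), with 1 panel for each replicate. The dark bars stay at or above 90.3% up to 500 bp and fall to 84.2% and 77.2% beyond, and the light bars fall to 40.8% and 24.7%.

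The limit of 1 kb itself marks no step that these data define. Just inside it, at 901 to 1000 bp, 8 of 11 pairs were covered in replicate 1 and 7 in replicate 2. Just outside, at 1001 to 1100 bp, 9 of 17 and 4 of 17 intervals were covered. All 128 divergent coding pairs at 1001 to 2000 bp had 43.0% and 27.3% covered, against 4.70% and 1.70% of equal one-directional promoters. The 554 divergent pairs of a coding and a noncoding gene at most 1 kb apart were covered in 82.1% and 71.7%, against 76.5% and 65.1% of equal one-directional promoters. Their excess of 5.62 and 6.56 percentage points was smaller than the 13.7 and 21.9 of the pairs of coding genes.

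Peaks at bidirectional promoters were among the higher-scoring peaks of each list. The median q score of the covering peaks was 240 in replicate 1 and 103 in replicate 2, against 41.4 and 39.5 over all listed peaks. A q score over 60 was reached by 876 of 889 covered pairs (98.5%) in replicate 1 and 745 of 852 (87.4%) in replicate 2, against 27.1% and 23.2% of all peaks. At one-directional promoters of equal CpG ratio and length the medians were 208 and 93.5, so that the ratio of medians was 1.15 and 1.10, a mean of 1.13 ± 0.0384 (SD, n = 2). The score was higher in replicate 1 than in replicate 2 in 841 of the 847 pairs covered in both. The median log2 ratio of ChIP over input barely differed, with 3.94 against 3.88 in replicate 1 and 2.73 against 2.74 in replicate 2.

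Pairs took a larger share of the highest peaks than of all listed peaks, although most of the highest peaks lay elsewhere. Among the listed peaks, 878 (1.50%) in replicate 1 and 842 (2.17%) in replicate 2 covered a pair, and 11 and 10 of these covered more than 1 pair. Pairs took 7 and 8 of the 100 highest peaks, 82 and 93 of the highest 1000, and 502 and 508 of the highest 5000. Across the 847 pairs covered in both replicates, which share their base composition, Spearman's rho between replicates was 0.749 for the q score and 0.745 for width, and 0.398 for the log2 ratio. Across covered pairs, Spearman's rho between q score and CpG ratio was 0.469 in 889 pairs and 0.361 in 852, whereas that between q score and the distance of the start sites was −0.038 and 0.063.

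**Figure D3:**
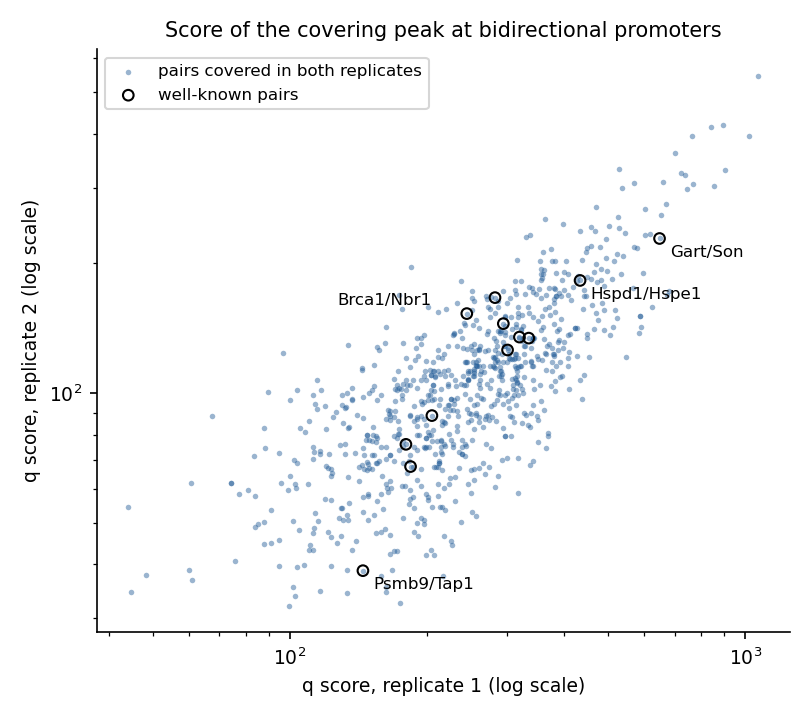
q score of the covering SOX3 peak in replicate 1 (horizontal, log scale) and replicate 2 (vertical, log scale) for each of the 847 bidirectional promoters covered in both, with 12 well-known gene pairs circled and 4 of them named. Scores in the replicates rise together (rho 0.749), and the circled pairs run from Psmb9/Tap1 at 145 and 38.7 to Gart/Son at 648 and 228.

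Peaks over pairs were wide, and most of their midpoints were not between the start sites. Covering peaks had median widths of 1888 and 1541 bp in replicates 1 and 2, against 738 and 697 bp over all peaks. The median exceeded that of equal one-directional promoters by 121 and 94 bp (mean 107.5 ± 19.1, SD, n = 2). A width of at least 3000 bp was found at 116 covered pairs (13.0%) in replicate 1 and at 41 (4.81%) in replicate 2, against 3.55% and 1.40% of all peaks. The midpoint of the peak fell between the paired start sites at 334 of 889 pairs (37.6%) in replicate 1 and at 321 of 852 (37.7%) in replicate 2. At equal one-directional promoters 17.5% and 20.2% of the midpoints fell inside the upstream interval. The median distance from the midpoint of the peak to the middle of the interval was 124.5 and 122.5 bp, against 244 and 213 bp. A one-directional interval is laid upstream of its only start site, whereas the peaks there reached further into the gene. The part of this placement in both differences of midpoint position was not tested.

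Single peaks over pairs mostly had their midpoint near the middle of the interval. It lay at most 250 bp from the middle at 634 of 889 pairs (71.3%) in replicate 1 and at 662 of 852 (77.7%) in replicate 2. The peak extended a median of 961 bp past the start site on its longer side and 701 bp on its shorter side in replicate 1, and 786.5 and 565.5 bp in replicate 2. The longer side exceeds the shorter by definition, so these medians give the size of the asymmetry only. Whether it exceeds that of randomly placed peaks was not tested. The longer side was at least 2 times the shorter at 184 of 889 pairs (20.7%) and at 235 of 852 (27.6%). Among the 847 pairs covered in both replicates, the midpoint lay on the same side of the middle in 610, and Spearman's rho between the offsets in the replicates was 0.523. By strand, the median reach was 795 bp into the minus-strand gene and 818 bp into the plus-strand gene in replicate 1, and 670.5 and 682.5 bp in replicate 2. Strand is an arbitrary orientation for a pair, so near-equal medians by strand say nothing of single peaks.

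One-directional promoters have an orientation of their own. At equal CpG ratio and length their peaks extended 943 and 774 bp into the gene and 548 and 411 bp beyond the upstream end of the interval. At 500 bp from the middle, 86.8% and 75.2% of positions on the gene side were inside a peak and 57.3% and 37.7% on the upstream side. For pairs, both sides lead into a gene, and 92.6% and 81.3% on the plus-strand side and 92.8% and 80.2% on the minus-strand side were inside a peak. The lists give no summit, so where within a peak the ChIP signal was highest is not known.

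**Figure D4:**
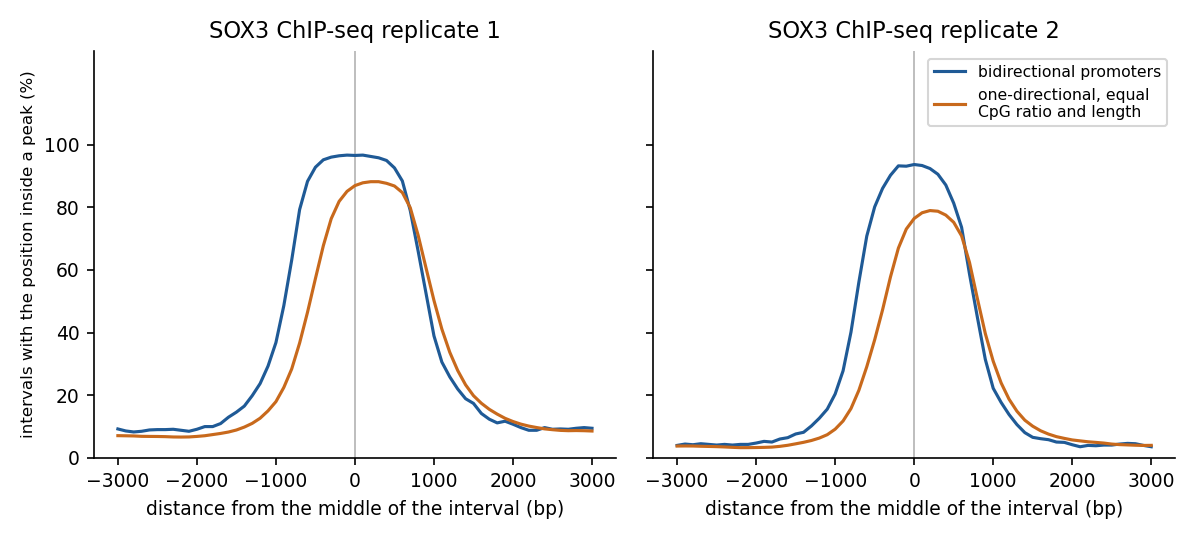
Percentage of intervals in which a position lay inside a SOX3 peak, against its distance from the middle of the interval in bp, for bidirectional promoters and for one-directional promoters of equal CpG ratio and interval length, with 1 panel for each replicate. Positive distances point into the plus-strand gene of a pair or into the one-directional gene, so the left side is a gene for the pairs and upstream DNA for the others, with 92.8% and 57.3% at 500 bp in replicate 1. The orientation of a pair is arbitrary, and its curve averages peaks that lean either way.

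The well-known divergent pairs were covered, as were most pairs. Of 17 pairs written down from general knowledge, 12 met the definition here. All 12 were covered in both replicates, against 90.9% of all pairs, so this count lies near the share over all pairs. The other 5, among them Surf1/Surf2, Col4a1/Col4a2, Ppat/Paics and Psmb1/Tbp, were not members by the curated start sites. Hspd1/Hspe1, which encode the mitochondrial chaperonin and its co-chaperonin, had q scores of 434 and 183 under peaks of 2035 and 1840 bp, with midpoints 109 and 72.5 bp to the minus-strand side of the middle. Gart/Son, for a purine synthesis enzyme and an RNA splicing protein, had the highest scores of the 12, 648 and 228. Psmb9/Tap1, an immunoproteasome subunit and a peptide transporter of antigen presentation, had the lowest, 145 and 38.7, and its peak narrowed from 2040 bp in replicate 1 to 590 bp in replicate 2.

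Genome maintenance genes made up much of this list. Brca1/Nbr1, a homologous recombination gene and an autophagy receptor gene with start sites at chr11:101551955-101552107, had q scores of 245 and 153. Atm/Npat, the DNA damage kinase and a coactivator of histone genes, had 205 and 88.6. Brca1/Nbr1 lay above the medians of all covered pairs, 240 and 103, and Atm/Npat lay below both. Mcm4/Prkdc, a replicative helicase subunit and a kinase of end joining, had 282 and 167, and Mcm7/Ap4m1, with the sequence shown above, had 294 and 145. Aimp2/Pms2, for a tRNA synthetase scaffold and a mismatch repair protein, had 180 and 76.0, and lay below both medians. Tsc2/Nthl1, a growth regulator and a base excision glycosylase, had 335 and 134. Wrap53/Trp53, which has the antisense partner of the p53 gene, had 319 and 135, with a peak of 6116 and 3538 bp, the widest of the 12 in both replicates. Mrps12/Sars2, both for mitochondrial translation, had 184 and 67.5.

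The 5 pairs with the best mean rank of q score were led by genes of chromatin and RNA processing. Brd2/H2-DMa, a bromodomain protein gene next to an MHC class II gene, had scores of 1068 and 546, rank 30 and 26 of all peaks. Its peaks were 11352 and 6682 bp wide, and their midpoints lay 5020 and 2716 bp from the middle, on the Brd2 side. Ddx5/Cep95, an RNA helicase and a centrosome protein, had 1017 and 396, with midpoints 740 and 770 bp to the Ddx5 side. Srsf2/Mfsd11, led by a splicing factor, had 894 and 420. Hnrnpa2b1/Cbx3, an RNA-binding protein and a heterochromatin protein, had 843 and 415, and Mrps18b/Ppp1r10, a mitochondrial ribosomal protein and a phosphatase regulator, had 903 and 330. In the last 3 pairs the start sites were far apart, at 668, 722 and 756 bp, with CpG ratios of 0.923, 0.959 and 1.00.

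CG-rich pairs without any peak were rare, and most of them held members of multicopy families. Among the 815 pairs with a CpG ratio above 0.6, 5 were touched by no peak in either replicate. These were H2ac24/H4bc24 (0.974), H2bc23/H2ac23 (0.958), Tcte3/Ermard (0.861), Gm3417/9030025P20Rik (0.858) and Dpysl2/Pnma2 (0.643). The histone genes belong to families of near-identical copies, and Tcte3 has close copies on the same chromosome, as do its neighbours. The authors' alignment placed a read that fitted several places at one of them at random, so the absence of a peak at such a pair is uncertain. Dpysl2/Pnma2 at chr14:66911041-66911208, for a neuronal collapsin response mediator and a paraneoplastic antigen, had the lowest CpG ratio of the 5.

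Of the 39 pairs with a CpG ratio under 0.4, 18 were touched by no peak and 7 were covered in both replicates. Those without a peak included several with genes of other tissues or of later germ cells. Among them were Abcg5/Abcg8, the sterol transporter of liver and gut (CpG ratio 0.243), and Plcz1/Capza3, a sperm phospholipase and a capping protein of late germ cells (0.259). Best1/Rab3il1 (0.101), whose first gene encodes a chloride channel of the retinal pigment epithelium, and Il11/Tmem190 (0.113), with a cytokine gene, were also not touched. Usp37/Plcd4 (0.219), with a gene of the ubiquitin and proteasome list below, was not touched either. Gng3/Bscl2, with a ratio of 0.167, had a peak of q score 103 and 3405 bp in replicate 2, while no peak touched it in replicate 1. Other CG-poor pairs were covered in replicate 1 only. Among them were Ifit1bl2/Ifit1 (0.118, q score 52.2), Tmem176b/Tmem176a (0.121, q score 95.2) and Wfdc8/Wfdc6b (0.179, q score 31.0). These examples were chosen after their values were seen.

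Gene groups were followed through lists built from gene symbols, which are not curated. Of the 82 pairs with a gene of RNA processing and transcription, all were covered in both replicates. Of the 67 pairs with a gene of the mitochondrial ribosome, import or respiration, 66 were. The exception was Ndufa5/Asb15, spanned in replicate 2 only. The share was 90.9% over all pairs and 95.7% over pairs with a CpG ratio above 0.6. Median CpG ratios were 0.829 in the RNA processing pairs and 0.791 in the mitochondrial pairs, against 0.775 over all pairs. One-directional promoters of the RNA processing list were covered in 94.1% and 87.2%, and those of the mitochondrial list in 93.0% and 87.5%. The part of base composition in the shares of the lists was not tested. Among 60 DNA repair and replication pairs 57 were covered in both. Rad51c/Tex14, led by a recombinase paralogue, had q scores of 408 and 169, and Gen1/Smc6, led by a junction resolvase, had 471 and 181. Rad51ap1/D6Wsu163e and Zswim9/Lig1 were covered in replicate 1 only and Pinlyp/Xrcc1 in neither. Cell cycle and mitosis gave 47 of 48, translation 31 of 33, chaperones 21 of 22 and zinc finger genes 23 of 24. Ubiquitin and proteasome pairs, with 43 of 47 (91.5%), lay near the share over all pairs.

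The share of a list's genes that lie in pairs varied far more than the share of pairs covered. Members of pairs made up 34.2% of the histone genes, 32.4% of the DNA repair and replication genes and 31.3% of the mitochondrial genes, against 8.80% of all coding genes. They made up 5.98% of the zinc finger genes and 0.492% of the extracellular matrix and cell surface genes. Of the 9 pairs caught by the last list, 8 were covered, but the list's symbols also caught genes of other function such as Ighmbp2 and Itgb3bp, and one-directional promoters of that list were covered in 6.83% and 4.11%, with a median CpG ratio of 0.147 against 0.596 in the pairs.

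Histone pairs had the highest scores of all lists and also 2 of the uncovered CG-rich pairs. Of 13 pairs 11 were covered in both replicates (84.6%), against 90.9% of all pairs. Of the 33 one-directional promoters of histone genes, 30 (90.9%) were covered in each replicate. The covered pairs had median q scores of 537 and 300 and median widths of 3041 and 2451 bp. H2ac11/H2bc11 had 764 and 395, H2ac15/H2bc15 had 736 and 320, H2ac20/H2bc21 had 721 and 324, and H2ac6/H2bc4 had 700 and 360. All 4 are back-to-back genes of H2A and H2B, and the uncovered pairs were H2bc23/H2ac23 and H2ac24/H4bc24. Reads of these near-identical genes can have been shared among copies.

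Germline genes lay near the shares over all genes and pairs. Of 236 genes of meiosis and germ cells 15 (6.36%) were in a pair, against 8.80% of all coding genes. Of these 15 pairs 13 (86.7%) were covered in both replicates, against 90.9% of all pairs. One-directional promoters of that list were covered in 48.1% and 33.0%, with a median CpG ratio of 0.408 against 0.827 in the pairs. Spata5, in Nudt6/Spata5 with scores of 489 and 140, and Tex14, an intercellular bridge gene of germ cells, were among the covered ones. Terb2, a telomere attachment gene of meiosis, was in the uncovered pair Patl2/Terb2 with a CpG ratio of 0.432, and Tssk3/Fam229a, led by a sperm kinase gene, was covered in replicate 1 only, with 69.9. For cilium and flagellum 18 of 19 pairs were covered in both, and Cfap52/Stx8 was in neither.

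The 25 pairs on the X chromosome, where Sox3 itself lies, were covered less in replicate 2. There were 22 covered (88.0%) in replicate 1 and 17 (68.0%) in replicate 2, against 95.6% and 92.1% of the 907 autosomal pairs. Their median CpG ratio was 0.612 against 0.778, and X-linked one-directional promoters were covered in 34.8% and 22.0% against 53.0% and 43.7% on autosomes. Whether the lower X share holds at equal CpG ratio was not tested. Between autosomes, coverage ran from 89.3% on chromosome 6 to 100% on chromosomes 9, 12, 16 and 18 in replicate 1.

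Some short motifs that the definition did not use were more common at the pairs, and others were less common. In windows of 300 bp around the middle, searched on both strands, the ETS motif CCGGAAG was in 279 of 932 pairs (29.9%, 27.0% to 33.0%), against 10.0% of all one-directional promoters and 16.7% of those with equal CpG ratio. CCAAT was in 43.1% of the pairs against 36.1% at equal CpG ratio, AAGATGG, a YY1 motif, in 10.6% against 6.93%, and TCGCGAGA, a CGCG element, in 4.40% against 2.32%. The GC box GGGCGG was less common, at 67.2% against 72.0%, and TATAAA was in 4.83% (3.54% to 6.41%) against 6.57%. The NRF1 motif GCGCATGC (6.22% against 5.69%) lay within the pairs' interval of 4.76% to 7.97%, and the E2F motif TTGGCGC (6.22% against 4.63%) lay just outside the same interval. Each is a match of letters and not a site. A window at a pair mostly holds start sites on both strands, and one at a one-directional promoter does not. The part of this in the shares was not tested.

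The letters searched for the SOX core, AACAAT and ACAAT, were no more common at the pairs. Other forms of the SOX motif were not searched. AACAAT was in 40 windows (4.29%, 3.08% to 5.80%), against 5.06% at equal CpG ratio and 9.43% of all one-directional promoters. The shorter ACAAT, which AACAAT contains, was in 16.6% of the pairs and 16.6% at equal CpG ratio. Of the 847 pairs covered in both replicates 31 (3.66%) held AACAAT, against 9 of the 85 others (10.6%). For the ETS motif the order was the reverse, with 270 of 847 (31.9%) against 9 of 85 (10.6%). Covered pairs also had the higher CpG ratio, and the part of composition in these shares was not tested. A missing match says only that these letters are not in the window.

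**Figure D5:**
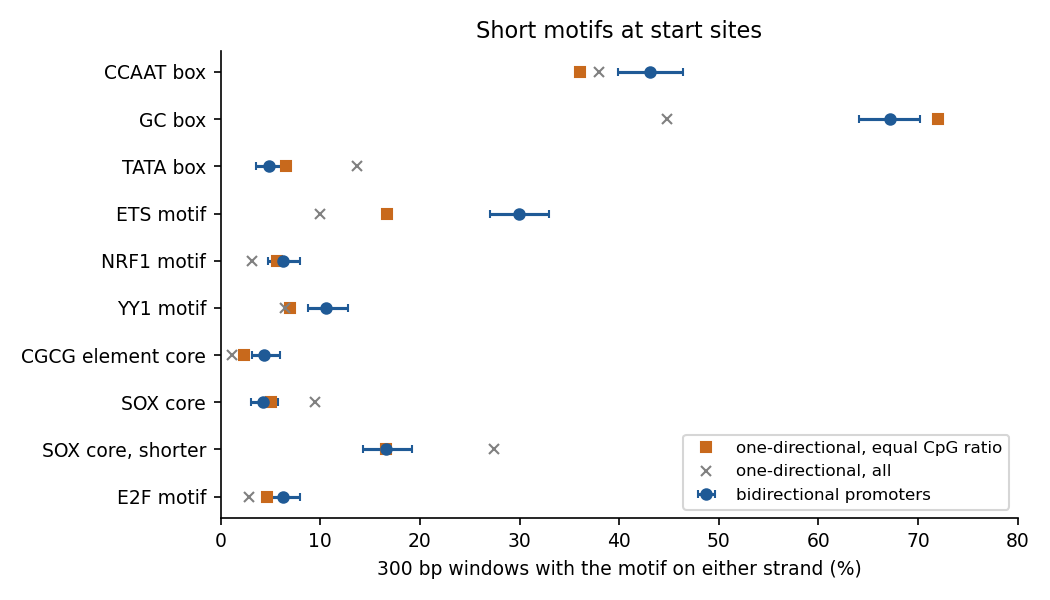
Percentage of 300 bp windows that hold a short motif on either strand, for bidirectional promoters (circles, with exact binomial 95% intervals), one-directional promoters of equal CpG ratio (squares) and all one-directional promoters (crosses). The ETS motif stands furthest apart, at 29.9% against 16.7%, and both SOX cores lie within the intervals of the pairs.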

How the data were processed

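SOX3 ChIP-seq and ChIP-nexus peak lists from P7 testis were used, 2 replicates of each. By the study's methods, the authors aligned reads to mm10 with Novoalign, placing reads with several matches at random, removed duplicates with Picard, and called peaks with USeq and MACS, which the submitters' processing notes give as MACS2 2.1.1. The deposited lists, 1 per replicate, have no header and do not name their caller, and their layout is that of USeq. Their q score (kept by the authors above 30) and log2 ratio were inferred from that layout and the values, and the deposited ChIP-nexus lists give a fold enrichment ratio. Which control those calls used is not given in the sources used here.

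Start sites came from curated RefSeq transcripts of GRCm38, taking the closest divergent sites for each gene pair. One-directional sites were those with most transcripts. Intervals were set on peaks in Python 3.11.15 (pandas 2.3.3, scipy 1.17.1), and the code was tested on simulated data and against bedtools 2.31.1. Named pairs were the well-known pairs, the 5 with best mean rank of q score, the 5 without a peak and with the highest CpG ratio, and examples from symbol lists. Values of 1 well-known pair are not reported here. Members and lists were chosen with earlier results of these data known. The other samples of the series were not analysed here.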

Additional observations from a re-analysis of the deposited data

How the results depend on the processing

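The 5 summary values were recomputed under alternatives, which gave 64 values. None of the 42 that are a difference or a ratio reversed. The pairs' covered share of 93.4% became 87.0% with q scores above 60, 90.6% with GENCODE start sites (1096 pairs) and 97.2% with CpG ratios above 0.6. Its excess of 17.8 percentage points became 11.7 when a 1 bp overlap counted as covered. The ratio of median q scores of 1.13 became 1.07 with q scores above 60, 1.18 with a 1 bp overlap and 1.17 with GENCODE. The excess in width of 107.5 bp became 78 bp with q scores above 60, 164 bp with a 50% overlap, 178 bp with a 1 bp overlap and 142 bp with GENCODE. The share of midpoints between the start sites, 37.6% with an SD of only 0.0748 between replicates, became 37.8% with q scores above 60, 37.3% with a 50% overlap, 37.0% with a 1 bp overlap, 31.2% with GENCODE, 40.2% with the site of most transcripts, 33.3% at most 500 bp apart, 37.4% on autosomes and 37.9% with CpG ratios above 0.6. The causes were not tested. Leaving out each replicate in turn gave covered shares of 91.4% to 95.4%, excesses of 13.7 to 21.9 percentage points, score ratios of 1.10 to 1.15, width excesses of 94 to 121 bp and midpoint shares of 37.6% to 37.7%. The autosomes, the CpG ratio above 0.6 and 1 pair per interval were alternatives chosen after seeing the data. No paired analysis was possible because the results come from no test, and the ChIP-seq and ChIP-nexus lists, which share replicate numbers, were not compared.

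The lists hold peaks past a threshold and no reads, and signal below the threshold at an uncovered pair is not seen. Replicate 1 listed 58351 peaks over 62.9 Mb and replicate 2 listed 38832 over 36.4 Mb. With 2 replicates the SD is itself uncertain.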

Other observations

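The ChIP-nexus lists, in which an exonuclease trims the DNA towards the bound protein, are short, with 110 mouse peaks in replicate 1 and 18 in replicate 2 on the assembled chromosomes. By the study's account of its libraries, both held far fewer unique reads than the SOX3 ChIP-seq libraries. A pair without a ChIP-nexus peak is therefore not shown to lack SOX3. In replicate 1, 1 of the 932 intervals between paired start sites was overlapped, that of the histone pair H2ac20/H2bc21, by a peak with a fold enrichment of 5.74. A peak lay within 1 kb of 4 pairs, and all 4 were histone pairs. The others were H2bc13/H2ac13 with a fold enrichment of 6.30, H2ac15/H2bc15 with 7.66 and H2ac24/H4bc24 with 5.66. The last of these had no ChIP-seq peak over its interval in either replicate. In replicate 2 of ChIP-nexus no pair was overlapped or had a peak within 1 kb. Histone genes have near-identical copies, so the place of reads among them is uncertain, and no explanation was tested.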
